A study of Mus musculus with 2 samples.

Results

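Vascular endothelial nuclei were sought in 1 single-nucleus spatial library of mouse eye tissue by a rule on marker UMIs, where a UMI is 1 counted RNA molecule. Barcodes entered if 200 or more genes were detected and mitochondrial UMIs made up less than 10%. Of these the rule took nuclei with at least 5 UMIs, and at least 0.2% of their UMIs, from the sum of 6 endothelial genes (Cdh5, Pecam1, Flt1, Kdr, Tek and Emcn), and with at most 2 UMIs from the mural genes Myh11, Notch3 and Rgs5. It found 863 members among 16867 kept nuclei (5.12%, exact binomial 95% interval 4.79 to 5.46%). The members held a median of 2229 UMIs and 1267 genes, against a median of 1811 UMIs over all kept nuclei. Within them, the rule contrasts nuclei with UMIs of Plvap, a gene of fenestrated endothelium, with nuclei with UMIs of Mfsd2a or Slco1c1, transporter genes of barrier endothelium. These values chose the members, so they are given as description.

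Per the labels, both libraries, 1 for expression and 1 for spatial barcodes, came from a retinal section of 10 micrometres taken from 1 eye and named T1. The study set mice heterozygous for a Prph2 missense allele on a C57BL/6J background beside wild-type mice, with spatial data at 6 months, and its text leaves T1 without a genotype. No genotype was inferred, no groups were compared, and no replicate exists, so no test was run and every interval covers counting error only, not differences between nuclei or animals. The positions formed 4 separate rings of tissue, called pieces 1 to 4 here, with 4406, 4196, 3695 and 4570 kept nuclei. The endothelial-like members described below held 3, 8, 6 and 172 UMIs of Xist, the transcript that silences an X chromosome, in pieces 1 to 4. In the same order they held 29, 37, 15 and 2 UMIs of the Y-linked genes Uty, Ddx3y, Kdm5d and Eif2s3y. Piece 4 thus stood apart from the other 3 pieces in both measures, while the labels describe 1 eye. Values per piece stand beside the results that turn on them, and pieces are not replicates.

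Endothelial cells line blood vessels, and their form differs between the beds of the eye. Retinal capillaries, which run in the inner retina, have tight junctions and dedicated transporters and form the inner blood-retina barrier under Norrin and Wnt signalling. The capillaries of the choroid, which lie against the retinal pigment epithelium (RPE), are fenestrated, with PLVAP as the protein of the fenestral diaphragm. Müller glia span the retina and support its neurons.

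The members fell into 2 kinds. Of 863 members, 488 (56.5%) held any UMI of Cdh5, Pecam1, Tek or Emcn, and 375 (43.5%) held UMIs of Flt1 or Kdr only among the rule genes. Nuclei were marked as Müller-like where Slc1a3, Glul, Aqp4, Abca8a, Kcnj10 and Rlbp1 gave at least 3 UMIs and at least 2 times the number expected from their depth. This mark, a split chosen after the values were seen, was carried by 392 members (45.4%). They are called Müller-marked members here, and the other 471 are called endothelial-like members. The 2 kinds also differed in depth, at a median of 3215 UMIs for Müller-marked and 1542 UMIs for endothelial-like members.

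Levels are given as CPM, the UMIs of a gene pooled over the nuclei of a set and scaled to a set total of 1e+06 UMIs, with exact Poisson 95% intervals. Flt1, a receptor for VEGF (vascular endothelial growth factor), stood at 3108.5 CPM (2992 to 3228) in endothelial-like and 2225 CPM (2146 to 2307) in Müller-marked members. Kdr, the main signalling receptor for VEGF, stood at 1098 CPM in the former and 1216 CPM in the latter. The junction gene Cdh5 was at 1142 CPM in endothelial-like members and 26.3 CPM in Müller-marked ones. Pecam1, a junction adhesion gene, was at 1150.2 and 31.6 CPM, Tek, the angiopoietin receptor, at 619.6 and 24.8 CPM, and the sialomucin gene Emcn at 818.5 and 2.25 CPM. Of the 6 rule genes, Flt1 and Kdr were close in both kinds and the other 4 were not. Among the Müller-marked members, 363 (92.6%) held only Flt1 or Kdr of the rule genes. They could enter only through these 2 genes, so the rule set their minimum, and the closeness is given as description.

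Genes outside the rule followed the same split. At least 3 UMIs of Tie1, Eng, Egfl7, Erg, Cyyr1 and Ptprb together were held by 444 of 471 endothelial-like members (94.3%) and by 20 of 392 Müller-marked members (5.10%). Tie1, an orphan receptor of the angiopoietin system, was at 781.5 CPM in the former and 18.0 CPM in the latter. Eng, a BMP and TGF-beta co-receptor, was at 1764 and 24.8 CPM. A gene was called higher in 1 set where its lower bound there reached 2 times its upper bound in the other set, given 20 or more UMIs over both. Of the 28 listed endothelial identity genes that the rule did not use, 27 were called higher in endothelial-like than in Müller-marked members, where 9.61% of 10554 genes were, and none lower, where 10.6% were. Leading the genes higher in Müller-marked members were Rgs6 (5973 against 17.3 CPM), Begain (724.3 against 0 CPM) and Gpr37 (992.5 against 2.31 CPM), which the mark did not use. Any UMI of the 4 endothelial genes Cdh5, Pecam1, Tek or Emcn together with a Müller mark occurred in 29 members.

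**Figure D1:**
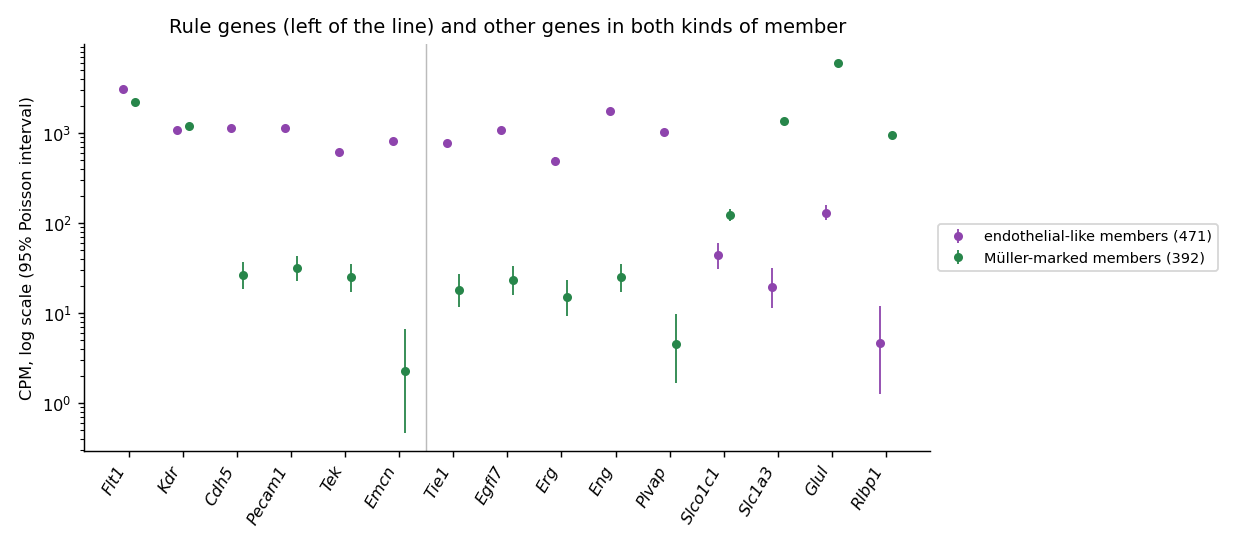
Levels of 15 genes in CPM on a log axis, with exact Poisson 95% intervals, in the 471 endothelial-like members (purple) and the 392 Müller-marked members (green). Flt1 and Kdr are close in both, while Cdh5, Pecam1, Tek and Emcn differ by more than 10-fold.

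Kept nuclei were also classed by the cell type whose markers most exceeded the UMIs expected from depth, under the limits of the Müller mark. The endothelial markers there were the rule genes and Plvap. Flt1 and Kdr were also found in 484 nuclei that the rule left out and that were classed as Müller glia. Left-out nuclei with the Müller mark but another class, such as endothelial, were not among them. Low Cdh5 in the 484 may thus follow in part from this choice. In those 484 nuclei, Flt1 was at 537.5 CPM and Kdr at 362.4 CPM, while Cdh5 was at 0.383 CPM. In rod-marked nuclei, which should lack these genes, Flt1 was at 6.24 CPM and Kdr at 5.61 CPM. Of 758 kept nuclei classed as Müller glia, the rule took 274 and left out these 484. Of the 392 Müller-marked members, 274 had that class and 109 were classed as endothelial. Between the 392 Müller-marked members, of any class, and these 484, 12 of 19 tested identity genes outside the rule were called higher in members. Over all 12165 genes 0.436% were. None of the 19 was called lower, where 5.18% of genes were. The rule and the choice by class both set this contrast. By class markers, 439 of the 471 endothelial-like members (93.2%) were classed as endothelial, 7 as adipocyte and 5 each as mural, fibroblast and ganglion cell. The endothelial share follows largely from the rule, whose genes are among those markers, and is given as description. By the genes outside the rule, the label of vascular endothelial nuclei was borne out for most endothelial-like members and for few Müller-marked ones. The results below follow each kind apart.

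The promoters of the receptors that the 2 kinds share and of those that part them are shown so that their letters can be compared. They are the 250 bases before the annotated start, from RefSeq on build GRCm38.p6, with capitals marking AGGAAG or its reverse complement CTTCCT, a word that ETS factors such as Erg and Fli1 can bind.
Flt1, chr5:147726012-147726261, minus strand: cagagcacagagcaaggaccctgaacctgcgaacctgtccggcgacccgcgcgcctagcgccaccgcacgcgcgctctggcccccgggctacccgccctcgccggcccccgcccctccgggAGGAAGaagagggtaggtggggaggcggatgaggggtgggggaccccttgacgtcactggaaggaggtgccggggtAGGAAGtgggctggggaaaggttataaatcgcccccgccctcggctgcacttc
Kdr, chr5:75978456-75978705, minus strand: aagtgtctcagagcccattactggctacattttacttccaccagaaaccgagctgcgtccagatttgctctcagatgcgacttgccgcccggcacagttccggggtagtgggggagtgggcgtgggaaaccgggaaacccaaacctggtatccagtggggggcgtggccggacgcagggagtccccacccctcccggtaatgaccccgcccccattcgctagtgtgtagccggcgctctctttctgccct
Tie1, chr4:118489850-118490099, minus strand: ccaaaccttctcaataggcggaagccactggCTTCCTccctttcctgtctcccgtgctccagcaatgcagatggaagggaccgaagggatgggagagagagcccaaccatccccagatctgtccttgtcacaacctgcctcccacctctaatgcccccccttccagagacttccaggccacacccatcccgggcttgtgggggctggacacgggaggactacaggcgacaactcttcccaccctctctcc
Eng, chr2:32646345-32646594, plus strand: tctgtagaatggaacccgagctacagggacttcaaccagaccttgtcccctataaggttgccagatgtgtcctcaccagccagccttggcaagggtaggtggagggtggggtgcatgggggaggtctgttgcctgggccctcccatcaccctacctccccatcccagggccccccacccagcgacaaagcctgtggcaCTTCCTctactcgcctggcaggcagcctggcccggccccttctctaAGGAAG
The word occurred 2 times before Flt1 and Eng, 1 time before Tie1 and 0 times before Kdr. It occurred in 29.2% of 27025 promoters of this length, 1 per gene, in 11 of the 17 endothelial identity genes with an entry (64.7%) and in 3 of the 5 Müller marker genes with an entry (60%). A match is a description of these letters. The genes themselves span chr5:147561604-147726438 (Flt1), chr5:75932827-75979072 (Kdr), chr4:118471191-118489849 (Tie1) and chr2:32646595-32682669 (Eng). For Flt1 and Kdr the printed stretch lies within the gene span, because the transcript whose start was used begins inside it.

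The contrast that the rule asks for was made between 192 members with Plvap UMIs alone and 117 with Mfsd2a or Slco1c1 UMIs alone. Another 3 members had UMIs of both kinds and 551 had neither. Plvap lies at chr8:71497753-71511806, Mfsd2a at chr4:122946850-122961194 and Slco1c1 at chr6:141524354-141570177. Of the 117 barrier-UMI members, 103 (88.0%) carried the Müller mark, against 2 of the 192 Plvap members (1.04%). Slco1c1, a carrier for thyroid hormone, gave most of this: 96 Müller-marked members (24.5%, 20.3 to 29.1%) held a Slco1c1 UMI. So did 83 of the 484 nuclei outside the rule classed as Müller glia (17.1%) and 6 of 5544 rod-marked nuclei (0.108%). Their median depths were 3007.5 and 1091 UMIs. Of the endothelial-like members only 14 held a UMI of Mfsd2a or Slco1c1, while 190 held one of Plvap.

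Between these groups 525 of 6835 genes were called higher in Plvap nuclei (7.68%) and 697 were called lower (10.2%). Of the 28 identity genes outside the rule, 21 were called higher in Plvap nuclei and none lower, with a median log2 ratio of 2.79 against 0.01 over all genes tested. All 6 Müller markers were called lower in Plvap nuclei. Of 18 barrier transport genes, 3 were called higher and 7 lower, and of 16 fenestration and caveolae genes 11 were called higher. The leading genes of the barrier-UMI group were Gpr37 (828.2 against 4.76 CPM), Synpr (1399 against 14.3 CPM) and Rgs6 (5447 against 121.4 CPM). Glul, which makes glutamine from glutamate in Müller glia, was at 5735 CPM there and 169.0 CPM in Plvap nuclei.
Plvap nuclei were led by Scd1, Exoc3l2, Bmp6, Tspan18 and Wipf3. As 88.0% of the barrier-UMI group carried the Müller mark, these genes need not be particular to Plvap nuclei among endothelial-like members. Exoc3l2, an exocyst-like gene of VEGF-responsive endothelium, was at 571.4 CPM against 0 of 388812 UMIs, and Bmp6, a BMP ligand, at 621.4 against 2.57 CPM. Scd1, a fatty acid desaturase, stood at 1726 CPM, but 97.2% of its UMIs came from 1 nucleus, and without it the level was 48.4 CPM. Of the 525 genes higher in Plvap nuclei, 460 were still called when each gene lost the nucleus with most of its UMIs.

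The members' places on the chip had no part in the rule. Depth was measured inward from the ring of RPE-marked nuclei, in the units of the deposited positions, whose length is not given. Plvap nuclei had a median depth of -39.5 (order-statistic 95% interval -96.3 to -28.8), close to the RPE line on its outer side, and barrier-UMI nuclei a median of 432.4 (357.4 to 481.3), inside the retina. In pieces 1 to 4 the medians were -136.5, -189.6, -43.1 and -32.0 for Plvap nuclei. They were 562.3, 352.6, 432.4 and 429.9 for barrier-UMI nuclei, so the order held in each piece. The intervals of the Plvap medians were wide in pieces 1 to 3: -1536 to -23.8, -1203 to -14.1 and -670.0 to -20.0. In piece 4 the interval was -48.4 to -22.9. Of 157 Plvap nuclei with a depth, 90 lay in the RPE band set below, 60 farther out and 7 in the retina. Piece 3 had 11 barrier-UMI nuclei with a depth, and the interval of their median ran from -2767 to 728.1. Müller-marked members lay at a median of 342.2, close to the 385.7 of the 484 nuclei outside the rule classed as Müller glia. Endothelial-like members without a Plvap UMI lay at a median of -1411, far on the outer side of the RPE line.

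**Figure D2:**
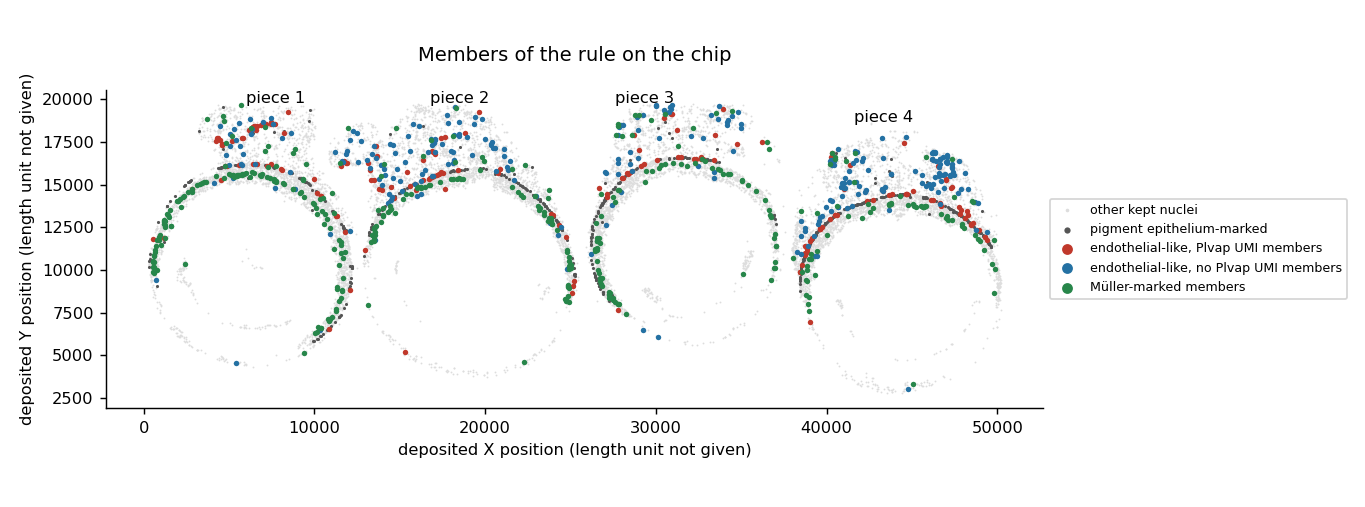
Deposited X and Y positions (length unit not given) of all kept nuclei (light grey), RPE-marked nuclei (dark grey) and the members, coloured by kind. Most green Müller-marked members lie in the retina (204 of 270 with a depth). Of 155 red endothelial-like members with a Plvap UMI and a depth, 90 lie in a band along the dark RPE line. Another 60 lie farther out and 5 in the retina.

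**Figure D3:**
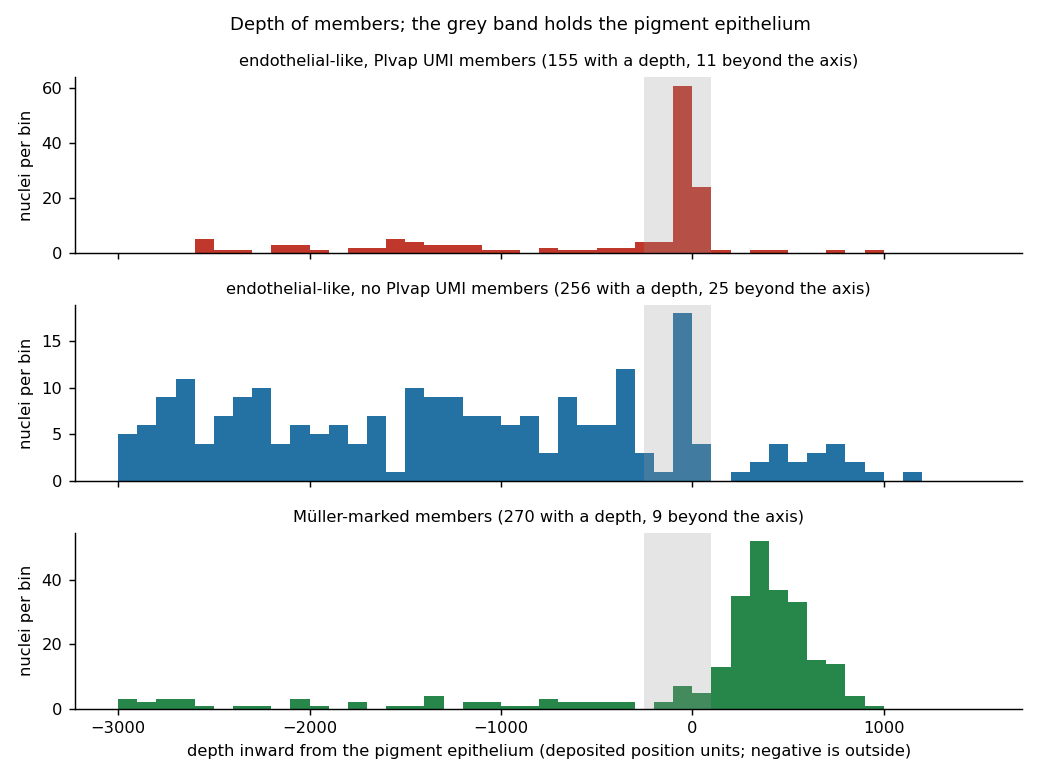
Number of nuclei per depth bin, in deposited position units, for endothelial-like members with a Plvap UMI (155 with a depth), those without (256) and Müller-marked members (270). The grey area is the RPE band, which holds 90 of the 155 Plvap nuclei.

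By depth, 4 zones were set after the positions were seen: outside (beyond -250), an RPE band (-250 to 100), retina (100 to 1000) and inside. Of the endothelial-like members, 273 were outside, 113 in the band, 24 in the retina and 1 inside, and 60 had no depth because too few RPE nuclei lay near their angle. The zones are blurred: of rod-marked nuclei with a depth, which belong to the retina, 31.5% fell outside. The part of such misplaced nuclei in the zone values was not tested. The band is set from RPE nuclei, so RPE neighbours there follow from its definition (4.75 times as frequent among the 20 nearest nuclei as among all nuclei). Around band members melanocytes, the pigment cells of the choroid, were 2.76 times as frequent. Around outside members, adipocytes were 3.78 times and skeletal muscle nuclei 3.74 times as frequent. Rods were still the largest class there, at 29.4% of the neighbours against 32.9% of kept nuclei. Skeletal muscle made up 9.12% and adipocytes 4.43% of those neighbours. Around retina members, ganglion cells were 4.42 times, amacrine cells 2.93 times and Müller glia 2.18 times as frequent.

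Plvap was most frequent in the band. A Plvap UMI was found in 90 of 113 band members (79.6%, 71.0 to 86.6%), 60 of 273 outside members (22.0%, 17.2 to 27.4%) and 5 of 24 retina members (20.8%, 7.13 to 42.2%). The share in rod-marked nuclei, which should lack the gene, was 2.09%. Median depths were 1997, 1357, 1781.5 and 1091 UMIs in that order. With each nucleus thinned to 500 UMIs, which left out 3, 5 and 1 shallower nuclei, the shares were 55.5%, 11.6% and 13.0%. The share was higher in the band than outside in each piece: 14 of 18 against 15 of 28 in piece 1, 19 of 31 against 22 of 89 in piece 2, 16 of 17 against 7 of 35 in piece 3, and 41 of 47 against 16 of 121 in piece 4. In piece 1 the intervals of the 2 shares overlapped. As a level, Plvap was at 2191 CPM (2008 to 2387) in the band and 369.9 CPM (315.9 to 430.4) outside, a ratio of 5.92.

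**Figure D4:**
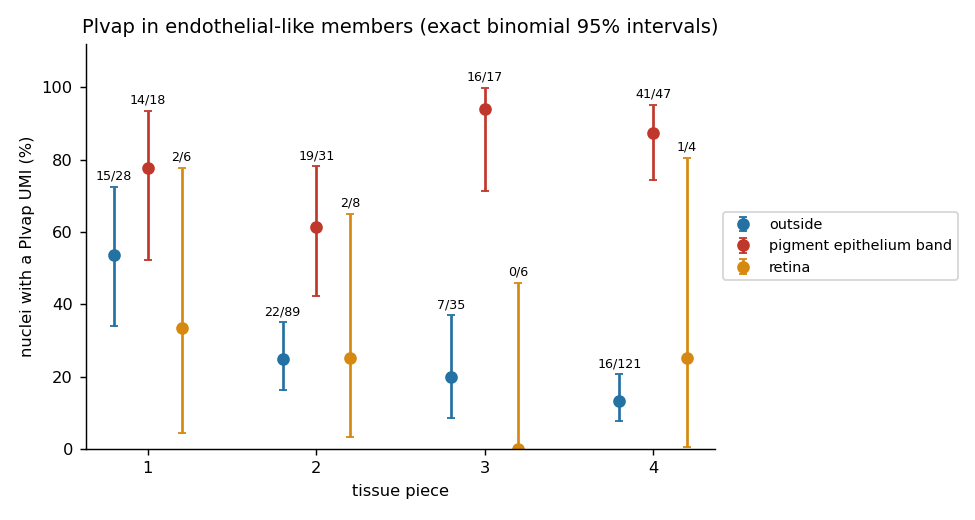
Share of endothelial-like members with a Plvap UMI in each piece and zone, with exact binomial 95% intervals and the counts above each point. The band point is the highest of the 3 zones in every piece.

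Between band and outside members, 116 of 5689 genes were called higher in the band (2.04%) and 124 lower (2.18%). When each gene lost the nucleus with most of its UMIs, 89 of the 116 and 89 of the 124 were still called. Over 50% of the UMIs came from 1 nucleus for 2 of the 116 and 12 of the 124. Of the 34 endothelial identity genes, 2 were called higher, the rule gene Emcn (1469 against 471.7 CPM) and Eng (2988 against 1196 CPM), and none lower. Flt1 was at 3827 CPM in the band and 2611 CPM outside, and Kdr at 1653 and 786 CPM, and neither was called. Of 18 tested genes of the fenestration and caveolae list, 4 were called in each direction. The 4 higher in the band were Plvap, Exoc3l2 (759.5 against 73.1 CPM), the lipid phosphatase gene Plpp1 (2554 against 485.0 CPM) and the endocytic gene Ehd4 (1110.1 against 252.5 CPM). The 4 lower in the band were the caveolar coat gene Cav1 (175.3 against 961.2 CPM), Cavin1 (158.6 against 662.2 CPM), the caveolar neck gene Ehd2 (183.6 against 593.6 CPM) and Gpihbp1. Thus the diaphragm gene Plvap and the caveolar genes Cav1, Cavin1 and Ehd2 were called in opposite directions. Of the genes that led in Plvap nuclei, Exoc3l2 was higher in the band. Bmp6 went the other way, with a UMI in 30.1% of band and 51.3% of outside members.

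Further genes were higher in the band than outside, chosen by the size of their bound ratio after values were seen. Six3, a homeobox gene best known from eye formation, was at 818.0 CPM (707.4 to 940.8) in the band, with UMIs in 63 of 113 nuclei, against 24.4 CPM outside. In pieces 1 to 4, Six3 was at 1122, 828.9, 1326 and 540.3 CPM in the band and at 50.9, 53.3, 0 and 0 CPM outside. Its antisense neighbour Six3os1 was at 726.1 against 22.1 CPM, and reads of the pair cannot be told apart because the strand setting is not given. In RPE-marked nuclei Six3 was at 145.8 CPM and in rod-marked nuclei at 6.03 CPM.
Adam12, a membrane protease, was at 400.6 against 8.86 CPM, with 320.4, 462.3, 736.6 and 284.4 CPM in the band of pieces 1 to 4. The mechanosensitive channel gene Piezo2 was at 939.0 against 79.7 CPM, and the muscarinic receptor gene Chrm2 at 313.0 against 8.86 CPM. The noradrenaline transporter gene Slc6a2 was at 329.7 against 8.86 CPM, but 76 of its 79 band UMIs came from piece 4. The 24 retina members held some of these genes too. Chrm2 had 14 UMIs of 47912 there and stood above the band in 2 of 4 pieces. Six3 and Six3os1 had 17 UMIs each there, with 10 and 7 from 1 nucleus, and stood above outside in 3 and 4 pieces. Six3, Adam12 and Piezo2 stood above the band in 0 of 4 pieces, and Six3os1 in 1. Among BMP and Notch genes, 4 of 18 tested were called higher in the band, where 2.04% of all genes were, and none lower, where 2.18% were. The 4 were Eng, which the identity list also holds, Smad6 (763.7 against 208.2 CPM), the receptor gene Bmpr2 and the Notch target Hes1 (125.2 against 13.3 CPM).

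Lipid uptake genes were lower in the band than outside. Of 9 tested, 6 were called lower in the band, where 2.18% of all genes were, and none higher, where 2.04% were. Their median log2 ratio was -3.68 against 0.12 over all genes. Cd36, a fatty acid translocase, was at 4.17 CPM in the band, where 1 nucleus held a UMI, and 733.1 CPM (656.2 to 816.5) outside, where 129 did. In pieces 1 to 4 its outside level was 118.8, 686.3, 575.8 and 977.5 CPM, and its band level 0, 15.9, 0 and 0 CPM. The fatty acid binding gene Fabp4 was at 387.6 CPM outside and 8.35 CPM in the band, and the lipase gene Lpl at 332.2 and 4.17 CPM. Pparg, Gpihbp1, which anchors that lipase to capillaries, and the homeobox gene Meox2 were the other 3. The atypical cadherin gene Cdh13, outside the list, was at 1840.5 against 50.1 CPM.

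Markers of other tissue moved with the outside zone. The 6 skeletal muscle markers summed to 2912 CPM outside (625.9 to 6856 over the pieces) and 83.5 CPM in the band, where Myh2 and Neb were at 0. Of these markers, 5 of 5 tested were called lower in the band, where 2.18% of all genes were. The 4 adipocyte markers summed to 130.7 CPM outside and were all at 0 in the band. Among the 200 outside members without a UMI of either list, Cd36 was at 645.2 CPM, Fabp4 at 287.8 CPM and Lpl at 201.8 CPM. Scd1, high outside at 1623 CPM, was at 63.0 CPM without 1 nucleus.

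**Figure D5:**
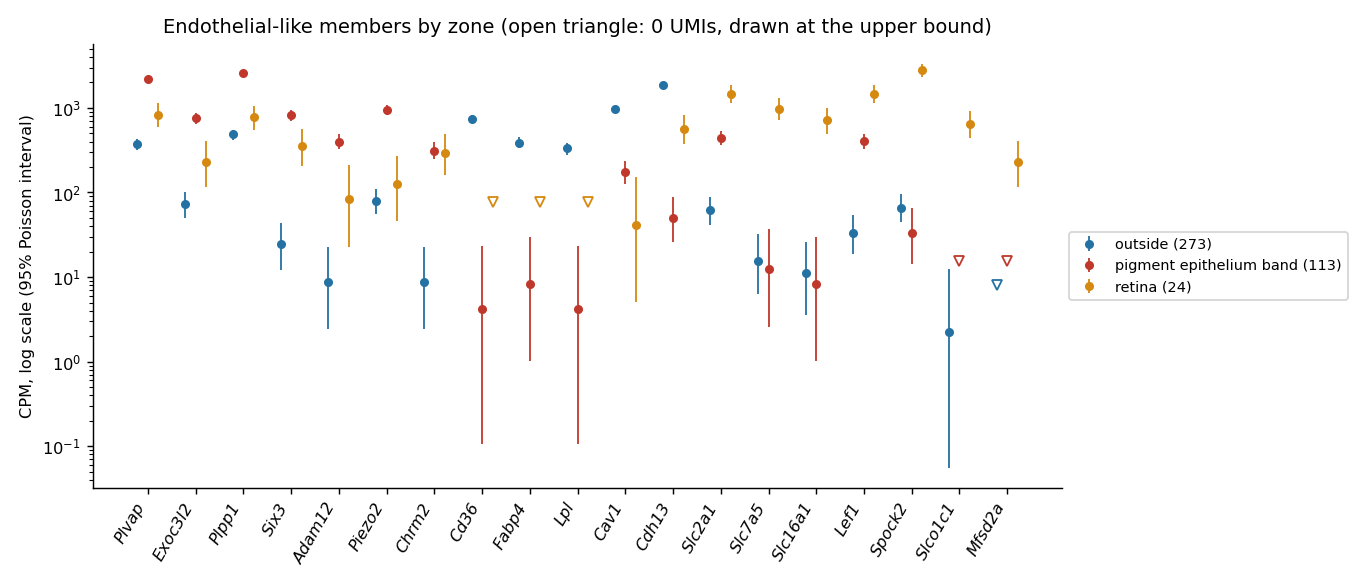
Levels of 19 genes in CPM on a log axis, with exact Poisson 95% intervals, in endothelial-like members outside (blue, 273 nuclei), in the RPE band (red, 113) and in the retina (orange, 24). Open triangles stand at the upper bound where no UMI was counted; Plvap and Six3 are highest in the band, Cd36 outside and Slc2a1 in the retina.

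Retina members were few but carried barrier genes. Of the 24, 11 (45.8%, 25.6 to 67.2%) held a UMI of Mfsd2a, the lipid transporter that limits transcytosis, or of Slco1c1, against 0 of 113 in the band and 1 of 273 outside. By a limit of 3 counts, a one-sided bound, 0 of 113 allows a share with a UMI of up to 2.65%, and the exact interval reaches 3.21%. Slco1c1 was at 647.0 CPM in the retina members and Mfsd2a at 229.6 CPM. Between retina and band, 53 of 2944 genes were called higher in the retina (1.8%) and 23 lower (0.781%). Of 14 tested barrier transport genes, 7 were called higher in the retina and none lower: Slc2a1, Slc7a5, Slc16a1, Spock2, Pltp, Slc7a1 and Slco1c1. Against outside members, where 1.68% of 4519 genes were called higher and 1.08% lower, 11 of 16 tested barrier transport genes were called higher in the retina and none lower.

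The glucose transporter gene Slc2a1 was at 1461 CPM (1139 to 1846) in the retina, 446.5 CPM in the band and 62.0 CPM outside. In pieces 1 to 4 its retina level was 929.9, 1121, 1469 and 2859 CPM and its band level 694.3, 430.4, 117.9 and 473.9 CPM. A Slc2a1 UMI was found in 75% of retina, 21.2% of band and 4.76% of outside members. With nuclei thinned as for Plvap, these shares were 34.8%, 10.9% and 1.12%. Of the 5544 rod-marked nuclei 14.2%, not thinned, also held a Slc2a1 UMI, so the gene was not confined to endothelial-like members. The large amino acid transporter gene Slc7a5 was at 981.0, 12.5 and 15.5 CPM in retina, band and outside, and the lactate transporter gene Slc16a1 at 709.6, 8.35 and 11.1 CPM. Spock2, a proteoglycan gene, was at 2776, 33.4 and 66.4 CPM. For these 4 genes the retina stood above the band and above outside in all 4 pieces.
Lef1, the transcription factor that acts in Wnt signalling, was graded: 1461 CPM in the retina, 404.8 CPM in the band and 33.2 CPM outside, in that order in every piece. Slco1a4 was at 939.2, 333.9 and 39.9 CPM, with the retina above the band in 2 of 4 pieces and the band above outside in 4 of 4. The tight junction gene Tjp1 was called higher in the retina than in the band (1273 against 258.7 CPM), and Ocln and Lsr higher than outside. Cldn5, the main claudin of barrier endothelium, was at 271.3, 108.5 and 50.9 CPM and was not called. Fn1, the fibronectin gene, was at 1983, 133.5 and 163.9 CPM.

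These 24 nuclei held 47912 UMIs, and single nuclei weighed on some values. Of the 53 genes called higher than in the band, 22 drew over 50% of their UMIs from 1 nucleus. When each gene lost the nucleus with most of its UMIs, 19 of the 53 were still called. Of the 76 genes called higher than outside, 28 drew over 50% from 1 nucleus, and 29 were still called. The neuregulin gene Nrg1 (1565 CPM) came wholly from 1 nucleus, and the neuronal genes Dab1, Cntnap2 and Asic2 drew 92.9, 96.8 and 78.3% of theirs from 1. Slc2a1, Slc7a5, Slc16a1, Spock2 and Lef1 drew 12.8 to 18.6%. In the 19 retina members with no UMI of Nrxn3, Cntnap2, Asic2 or Dab1, Slc2a1 was at 1423 CPM, Slc7a5 at 1088 CPM and Lef1 at 1841 CPM. Plvap in the retina, at 834.9 CPM, drew 47.5% of its 40 UMIs from 1 nucleus. Markers of other cells were present too: 8 rod markers summed to 2150 CPM there (1135 CPM in the band), the 6 Müller markers to 647.0 CPM (166.9 CPM) and 10 mural markers to 605.3 CPM (116.9 CPM), with Myh11, Acta2 and Tagln among 5 at 0. Their part in the retina values was not tested.

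Many nuclei with both endothelial and barrier UMIs were left out by the mural limit. A further 167 nuclei met both endothelial thresholds but held over 2 UMIs of Myh11, Notch3 and Rgs5, genes of pericytes and smooth muscle. Of these, 165 held a UMI of Cdh5, Pecam1, Tek or Emcn, and 67 (40.1%, 32.6 to 48.0%) one of Mfsd2a or Slco1c1. In the retina lay 60 of them, with a barrier UMI in 44 (73.3%, 60.3 to 83.9%) and a Plvap UMI in none, where the same limit allows a share of up to 5% and the exact interval reaches 5.96%. Their Slc2a1 was at 1965 CPM, Slc7a5 at 1003 CPM, Spock2 at 4614 CPM and Lef1 at 1620.3 CPM, against 1461, 981.0, 2776 and 1461 CPM in the 24 retina members. The intervals of both sets overlapped for Slc2a1, Slc7a5 and Lef1 and not for Spock2. Of the 167, 45 (26.9%) also carried the Müller mark, and Glul was at 2402 CPM in the 60 against 542.7 CPM in the 24. Rgs5, a pericyte gene, was at 3127 CPM in the 60 by the limit that chose them. The part of RNA from other cells in these values was not tested. In the RPE band, 25 of 32 such nuclei held a Plvap UMI (78.1%) and 2 a barrier UMI. Of 92 retina nuclei with both endothelial thresholds and a UMI of those 4 genes, the rule took 34 and its mural limit excluded 58; of the 62 among them with a barrier UMI, it took 18.

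Over all zones, endothelial-like members stood apart from the other kept nuclei in the groups that define endothelium. All 28 identity genes outside the rule were called higher than in other nuclei, where 7.06% of 18700 genes were called higher and 9.55% lower. Vwf, which carries clotting factor in plasma, was at 1907 CPM against 37.5 CPM in nuclei outside the rule. The junctional phosphatase gene Ptprb was at 1936 CPM against 59.7 CPM, and Egfl7, a vascular matrix gene, at 1096 against 16.5 CPM. Of 19 fenestration and caveolae genes, 18 were called higher. Of 24 genes of leukocyte adhesion, tone and coagulation, 20 were, among them Vwf, the flow-responsive factor Klf2 (453.2 CPM) and the nitric oxide synthase gene Nos3 (348.0 CPM).

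The VEGF and angiopoietin list holds receptors and ligands. Beside Flt1, Kdr, Tek and Tie1, the co-receptor genes Nrp1 and Nrp2 were at 1035 and 566.4 CPM, and Flt4 at 322.5 CPM. Pdgfb, the ligand that recruits pericytes, was at 426.6 CPM against 16.8 CPM in other nuclei. Vegfa was at 25.4 CPM, against 323.8 CPM in Müller-marked members and 491.3 CPM in RPE-marked nuclei. Angpt2 was at 15.0 CPM and Apln at 2.31 CPM. In all, 13 of the list's 21 genes were called higher than in other nuclei, where 7.06% of 18700 genes were. Of the list 1, Vegfa, was called lower, where 9.55% of genes were.

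Wnt receptor genes were counted in all 3 zones. Fzd4, the Norrin receptor, was at 183.6 CPM in the band, 168.3 CPM outside and 104.4 CPM in the retina, and its partner Tspan12 at 154.4, 86.4 and 62.6 CPM. Lrp5 was at 396.5, 330.0 and 250.5 CPM. None of these 3 was called between zones. The retina values rested on 5, 3 and 12 UMIs of Fzd4, Tspan12 and Lrp5, few for a call in either direction. Between band and outside, 2 of 14 tested genes of the Norrin and Wnt list were called higher, Lef1 and Foxf2 (87.6 against 2.21 CPM), and none lower. Over all 5689 genes 2.04% were called higher and 2.18% lower. Tcf7l1, a repressing partner of that pathway, was called lower in the retina (125.2 CPM) than in the band (788.7 CPM). Norrin itself, Ndp, was at 3.47 CPM in endothelial-like members.

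Between band and outside, 2.04% of 5689 genes were called higher in the band and 2.18% lower. Of 18 arterial genes tested there none was called in either direction, and of 12 venous genes Flrt2 was called higher and Tshz2 lower. Lists this short cannot be told apart from those shares. The arterial chemokine gene Cxcl12 was at 554.9 CPM and the Notch ligand gene Dll4 at 117.9 CPM over all endothelial-like members. The venous gene Ephb4 was at 486.7 CPM and Nr2f2 at 174.6 CPM.
The lymphatic list was mixed between band and outside. Lyve1, a hyaluronan receptor, was at 126.2 CPM outside, in 28 nuclei, and at 4.17 CPM in the band, in 1. Prox1, the factor that sets lymphatic identity, was at 75.3 CPM in 12 outside nuclei and 4.17 CPM in 1 band nucleus. Both were called lower in the band, as was Reln, so 3 of 4 tested lymphatic genes were. The fourth, the receptor gene Flt4, was at 467.4 CPM in the band and 243.6 CPM outside and was not called. At least 3 UMIs of Lyve1, Prox1, Reln, Flt4 and Mmrn1 together were held by 15 of 113 band and 18 of 273 outside members, and 0 and 8 of these held Prox1.

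The vascular basement membrane genes Hspg2, Col4a2 and Col4a1 were at 1989, 847.4 and 818.5 CPM in endothelial-like members. Of that list, 17 of 20 genes were called higher than in other nuclei, where 7.06% of 18700 genes were. Between band and outside the integrin gene Itga1 (112.7 against 443.0 CPM) and Sparcl1 were called lower in the band and the nidogen gene Nid2 (242 against 46.5 CPM) higher. Cell cycle genes had few UMIs: the highest, Mki67, was at 9.25 CPM, and none of 7 tested was called.

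Mural and fibroblast nuclei, 234 and 923, were found by rules of the same form on their own markers. The mural rule set no endothelial limit. Nuclei that met both endothelial thresholds but exceeded the mural limit could thus enter the 234, and their number there is not given here. Against mural nuclei, which held Cdh5 at 591.1 CPM themselves, 5 of 28 identity genes outside the rule were called higher in endothelial-like members, where 1.86% of 9698 genes were. All 4 mural markers that no rule used were called lower there, where 3.58% of genes were. Against fibroblasts 25 of the 28 identity genes were called higher, where 5.63% of 11457 genes were, and none lower, where 7.25% were. All 863 members against all other kept nuclei gave 1466 genes higher (7.81% of 18768) and 1640 lower (8.74%). That comparison mixed both kinds: the 6 Müller markers were all called higher in it along with the 28 identity genes outside the rule.

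Nuclei just inside and outside the thresholds were as follows. Of 70 nuclei with exactly 5 UMIs of the rule genes, 32.9% were Müller-marked and 61.4% held a UMI of Cdh5, Pecam1, Tek or Emcn. Of 61 nuclei just outside, with 4 UMIs, 23.0% were Müller-marked and 78.7% held such a UMI. Under the other limit, 353 nuclei had at least 5 UMIs but under 0.2% of their UMIs, and 66.0% of those were Müller-marked. At the mural limit, 31 members held 2 mural UMIs and 14 excluded nuclei held 3, and all of both held a UMI of the 4 genes.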

How the data were processed

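The deposited matrix held a raw UMI count per gene and barcode (17285 barcodes, 32285 features), and the deposited table of positions held other units, 1 point per barcode. Per the submitters' processing notes, fastp, STAR, Seurat 4.1.1 and mm10 were used by the authors; not given in the sources used here: their roles, the annotation, the strand setting and cell calling. Low gene number (below 200) removed 328 barcodes, and a mitochondrial share of 10% or more applied to 97. No doublet caller was run, so doublets may remain.

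Computation used python 3.11.15, numpy 2.4.6, pandas 2.3.3, scipy 1.17.1, scikit-learn 1.9.0 and matplotlib 3.10.9. Counts were pooled over nuclei to CPM with exact Poisson intervals, and shares carry exact (Clopper-Pearson) binomial intervals, all at 95%. The calling rule was tested on simulated data with Poisson counting error alone. Spread between nuclei was not simulated, so that test does not cover genes with most of their UMIs in 1 nucleus. Pieces came from density clustering of the positions (radius 400, at least 5 points), with the centre of each from a circle through its RPE nuclei, and depth from at least 4 RPE nuclei within 5 degrees. Nuclei of 1 library are not replicates, so no p-value was computed.

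Members and gene lists were chosen with earlier results of these data known. Named genes were the rule genes, up to 6 of highest level per list and every list member called between Plvap and barrier-UMI nuclei, and the leading genes by bound ratio; others were chosen after their values were seen. Of 235 listed symbols, 233 were found. Alternatives are in the closing section. Gene positions and promoters came from RefSeq on GRCm38.p6.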

Additional observations from a re-analysis of the deposited data

How the results depend on the processing

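No paired analysis was possible because neither library has a group or replicate in the labels. Of 90 alternative values for 21 results, 68 stayed close to the reported value and 22 moved. Close means within 1.5 times a count, within an interval or, for neighbour ratios, within the range over the pieces. Only depth medians could change sign, and none did. Numbers of calls do not tell whether the same genes were called. With at least 10 endothelial UMIs the rule took 532 members, 290 of them endothelial-like and 242 Müller-marked. With at least 0.5% endothelial UMIs it took 454 members, 36 of them with a barrier UMI and 69 Müller-marked, and 310 genes were called between Plvap and barrier-UMI nuclei. With at least 500 detected genes the median distance of members to an RPE nucleus was 502.9, against 460.8. Between Plvap and barrier-UMI nuclei 787 genes were called with at least 2 UMIs to enter a group and 572 after thinning to 1000 UMIs, against 1222. Members against other nuclei gave 1840 calls with bounds 3 times apart, against 3106. Band against outside gave 103 calls after thinning and 125 with bounds 3 times apart, against 240, the last 2 added after the data were seen, as were the mark at 4 times, a narrower band and k-means pieces. Leaving out each piece in turn gave 173 to 215 such calls, and 909 to 1148 between Plvap and barrier-UMI nuclei. Fewer nuclei or UMIs entered under the stricter thresholds and thinning; otherwise the cause was not tested. A mean over nuclei moved the outside level of Scd1 from 1623 to 424.5 CPM. The 24 retina members held 47912 UMIs in all, so a count of 0 there allows up to 62.6 CPM by the limit of 3 counts, against 12.5 CPM in the band.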
